A study of Mus musculus with 4 samples.

Results

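The plasminogen activation genes described here were *Plau*, *Plat*, *Plaur*, *Serpine2*, *Serpinb2*, *F3* and *Tfpi2*, 7 of the 20197 genes measured in 4T1 cells with high or low mitochondrial membrane potential (MMP). They were chosen by name for their function, except *Serpinb2*, which was selected on its difference between high and low MMP cells in these same libraries. Its values are therefore a description with no test. 4T1 is a mouse mammary carcinoma line that forms lung metastases and is used to study triple negative disease. All 4 samples were wild-type 4T1 cells grown in culture, stained with MitoSpy Red at 20 nM, a dye that accumulates in mitochondria according to MMP, and detached with trypsin. The brightest 5% formed the high MMP group (n = 2) and the dimmest 5% the low MMP group (n = 2), with RNA taken from 100000 cells per sample, to compare gene expression at differing mitochondrial activity. The cells were of 1 line in culture with no host tissue. The study counts the replicates as independent experiments, but neither it nor the labels say which high and low MMP samples were sorted together.

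Plasmin is a serine protease that dissolves fibrin and also cuts matrix proteins around cells. It is released from plasminogen by the urokinase-type activator (*Plau*), which works on the cell surface bound to its receptor (*Plaur*), or by the tissue-type activator (*Plat*). Serpins block these activators by acting as suicide substrates, and in mammary tumors the urokinase branch is best known for its link to invasion. Tissue factor (*F3*) starts coagulation, the process that deposits the fibrin on which plasmin acts, and *Tfpi2* encodes a Kunitz-type inhibitor of plasmin and related proteases in the matrix.

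The libraries held between 22591970 and 26395015 reads assigned to genes. Values are given as normalized reads, on a scale where each library sums to 20000000. Epithelial markers were abundant, with *Krt8* between 13147 and 19554 normalized reads, and 6 of the 7 epithelial markers listed were in the table. *Ptprc*, which defines leukocytes, was at most 1.77 normalized reads, and the 2 endothelial markers in the table summed to between 1.74 and 6.20. The 5 fibroblast markers in the table summed to 343 and 405 in high MMP and to 582 and 632 in low MMP cells. Most of this came from *Pdgfra*. *Col1a1* ranged from 6.06 to 34.0, *Pdgfrb* was at most 10.5, and *Dcn* and *Col1a2* were at most 9.09. The leukocyte markers summed to between 380.1 and 391.7, mostly from *Cd14* and *Cd68*. High MMP replicate 1 stood apart in mitochondrially encoded mRNA, with 1.27% of its reads against 2.02% to 2.24% in the other libraries. The part of these differences in the results on the plasminogen activation genes was not tested.

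4T1 cells of both groups expressed the urokinase branch at a high level and the tissue-type activator at a low one. Per kilobase of exon, the level ranged over the 4 libraries from 1648 to 2197 normalized reads for *Plau* and from 1316 to 1839.6 for *Plaur*, and these ranges overlapped. *Serpine2*, the gene of protease nexin-1, which inhibits thrombin, urokinase and plasmin, followed with 475 to 621 per kilobase, a range clear of its neighbours. *F3* lay at 70.4 to 86.1 per kilobase, again with no overlap. *Serpinb2* had 10.8 to 35.5 and *Plat* 14.3 to 22.1 per kilobase, and these lowest levels among the clearly detected members could not be ordered. *Tfpi2* was at the limit of detection, with at most 2.87 per kilobase. The order depends on the length used, which joins the exons of all annotated transcripts. It was 8287 bases for *Serpine2* against 2367 for *Plau* and 2617 for *Plaur*. In normalized reads per gene, without this length, *Serpine2* (3936 to 5147) overlapped with *Plau* and *Plaur*. *Plat*, at 6241 bases, had 89.5 to 138 normalized reads, above *Serpinb2*, at 2349 bases, with 25.3 to 83.3.

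**Figure D1:**
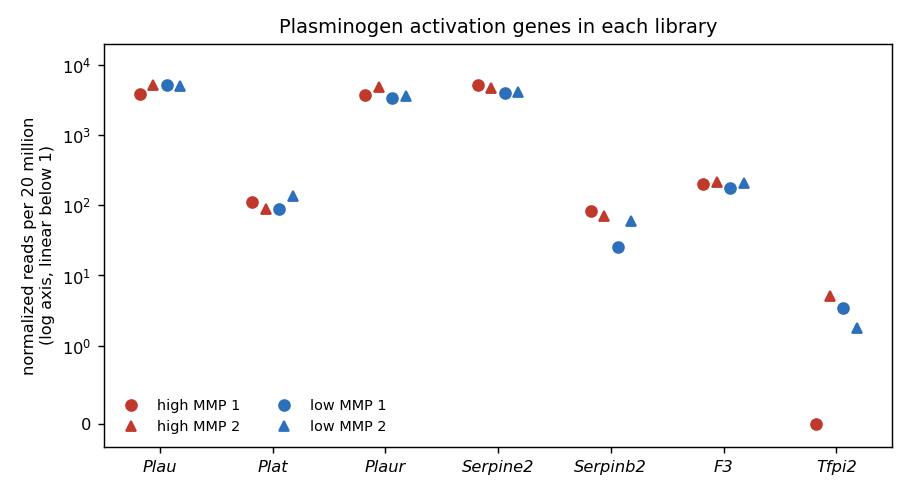
Normalized reads of the 7 genes in each library (vertical axis logarithmic above 1 and linear below), with circles for replicate 1 and triangles for replicate 2 of high MMP (red) and low MMP (blue) cells. *Plau*, *Plaur* and *Serpine2* lie between 3443 and 5200.1 in every library, far above the other 4 genes, and *Serpinb2* in low MMP replicate 1 lies below the other 3 libraries.

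No member of the system passed the test between high and low MMP cells. Of the 6 members that were tested, 0 had an adjusted p under 0.05 (limma, Benjamini-Hochberg over all genes), as did 0 of all 20197 genes (0%). At an unadjusted p under 0.05, limma found 798 genes higher in high MMP cells (3.95%) and 1213 lower (6.01%), and *Serpine2* was the 1 member among them. A quasi-likelihood test with edgeR on the recovered reads called 0 genes as well, with 1423 at an unadjusted p under 0.05. Other count-based fits did call genes, 118 with DESeq2 and 106 with edgeR and the replicate number as a block, and none of them was a tested member. By the plainer measure of whether the groups overlapped, 13.5% of all genes had both high MMP values above both low MMP values and 24.5% had both below. Among the 6 members, *Plaur* and *Serpine2* were of the first kind, none was of the second, and the groups overlapped for *Plau*, *Plat*, *F3* and *Tfpi2*. With 6 genes, 2 against a background of 13.5% is not a result about the members as a group.

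*Plau* (ENSMUSG00000021822, chromosome 14, 20836660 to 20843385, plus strand, GRCm38) encodes urokinase. It had 3901 and 5139 normalized reads in the high MMP and 5200.1 and 4952 in the low MMP samples. The groups overlapped, because high MMP replicate 2 exceeded low MMP replicate 2, and high MMP replicate 1 was the lowest of the 4. The mean was 4520.2 ± 875 (SD, n = 2) in high and 5076 ± 175 (SD, n = 2) in low MMP cells. The difference, high minus low on the log2(value + 1) scale, was -0.18 with a standard error of 0.16 (limma, adjusted p = 0.811), within the spread between replicates. Without high MMP replicate 1 it was 0.02. *Plau* was sampled by 5149 to 6141 reads per library, so that counting error was small beside the spread of the high MMP samples.

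*Plat* (ENSMUSG00000031538, chromosome 8, 22757727 to 22782844, plus strand) encodes the tissue-type activator, which is best known from clot lysis in vessels and from neurons. High MMP samples had 109.9 and 89.5 normalized reads and low MMP samples 89.8 and 138. The highest and the second lowest value both came from low MMP cells, and the groups overlapped. The log2 difference was -0.17 with a standard error of 0.27 (limma, adjusted p = 0.926), and it changed sign to 0.14 without low MMP replicate 2.

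*Plaur* (ENSMUSG00000046223, chromosome 7, 24462484 to 24475968, plus strand) encodes the membrane-anchored receptor that holds urokinase at the cell surface. The high MMP samples had 3759.8 and 4814 normalized reads and the low MMP samples 3443 and 3674. Both high MMP values lay above both low MMP values, but the gap between the groups was narrow beside the distance between the high MMP replicates. The means were 4287 ± 746 (SD, n = 2) and 3559 ± 163 (SD, n = 2), 1.20-fold apart, and the log2 difference was 0.26 with a standard error of 0.15 (limma, adjusted p = 0.690). Leaving out high MMP replicate 2 left 0.08, and the receptor is therefore not shown to differ.

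*Serpine2* (ENSMUSG00000026249, chromosome 1, 79794197 to 79861180, minus strand) had 5147 and 4759 normalized reads in high MMP cells against 3936 and 4116 in low MMP cells. Of the tested members it was the one whose groups stood clearest of each other. The means were 4953 ± 274 (SD, n = 2) and 4026 ± 127 (SD, n = 2), a fold of 1.23. The log2 difference was 0.30 with a standard error of 0.09, at an unadjusted p of 0.0263 in limma and an adjusted p of 0.472. This was the lowest adjusted p in the table, but it was shared with genes of smaller unadjusted p, *Procr* among them (limma, unadjusted p = 0.00332). The difference stayed between 0.24 and 0.35 with each library left out in turn.

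*Serpinb2* (ENSMUSG00000062345, chromosome 1, 107511423 to 107535478, plus strand) encodes plasminogen activator inhibitor 2, a clade B serpin that inhibits urokinase and resides largely inside cells. It was counted in 110 and 85 reads in the high MMP and in 29 and 68 reads in the low MMP libraries, or 83.3, 71.1, 25.3 and 60.2 normalized reads. Both high MMP values were above both low MMP values, and low MMP replicate 1 was far below the rest. The 95% exact Poisson intervals, which cover counting error only, were 68.5 to 100.46 and 56.8 to 88.0 in high MMP and 16.9 to 36.3 and 46.7 to 76.3 in low MMP cells. Thus the intervals of low MMP replicate 2 and of both high MMP libraries overlapped, whereas that of low MMP replicate 1 overlapped with none of the other 3.

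The means of *Serpinb2* were 77.2 ± 8.64 (SD, n = 2) in high and 42.7 ± 24.7 (SD, n = 2) in low MMP cells, and the log2 difference was 0.96. This value rests on 1 library: it was 0.35 without low MMP replicate 1 and 1.57 without low MMP replicate 2. The low MMP replicates were themselves 1.22 apart on the log2 scale, further than the groups. A lower value in bulk RNA can come from fewer cells that express a gene or from less RNA per cell, which cannot be told apart here.

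The summed level of 13 early response genes, which react to handling of cells among other stimuli, shared its extremes with *Serpinb2* but not its order. This sum was 61981 and 46533 normalized reads in the high MMP and 34274 and 54726 in the low MMP samples. As for *Serpinb2*, the sum was highest in high MMP replicate 1 and lowest in low MMP replicate 1, but unlike *Serpinb2* it was higher in low MMP replicate 2 than in high MMP replicate 2, and the groups overlapped. *Fosb*, a subunit of the transcription factor AP-1, ranged from 389 in low MMP replicate 1 to 5063 in low MMP replicate 2, with 4855 and 601 in the high MMP samples. All 13 genes were in the table, and for 7 the groups overlapped. Both high MMP values lay above both low MMP values for 5 (38.5%, against 13.5% of all genes) and below them for 1 (7.69%, against 24.5%), *Hspa1a*, which was near 0 in every library. The 5 higher genes, *Junb*, *Egr1*, *Ier2*, *Ier3* and *Klf6*, each ranked the libraries in the order of *Serpinb2*. For example, *Egr1* had 10354 and 9783 normalized reads in the high MMP and 6032 and 8141 in the low MMP samples. The part of the 13 genes in the difference of *Serpinb2* was not tested.

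**Figure D2:**
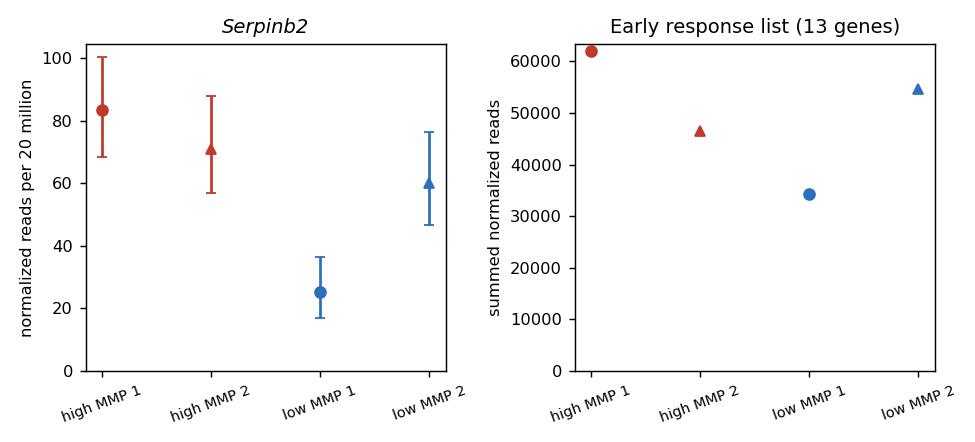
Normalized reads of *Serpinb2* with 95% exact Poisson intervals for counting error (left) and the summed normalized reads of the 13 early response genes (right) in each library. Low MMP replicate 1 is lowest in both panels, at 25.3 and 34274, and high MMP replicate 1 is highest, at 83.3 and 61981.

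The genes whose pattern was most like that of *Serpinb2* were taken as the 5 with the smallest Euclidean distance in centred log2(value + 1) over the 4 libraries, among genes with a mean of at least 10. They were *Gm20139* (distance 0.18), *Gm6768* (0.25), *Btg2* (0.34), *Gm6257* (0.35) and *Egr2* (0.36). *Btg2*, an antiproliferative gene, had 436 and 275 normalized reads in high MMP and 131 and 287 in low MMP cells. *Egr2*, a zinc finger transcription factor of the early growth response family, had 246 and 207 against 99.4 and 170.0. As in *Serpinb2*, low MMP replicate 1 was the lowest library for each of the 5 genes, a likeness that follows from how they were chosen. *Btg2* and *Gm6768* (18.6 against 18.4) were, however, higher in low MMP replicate 2 than in high MMP replicate 2. *Gm20139*, *Gm6768* and *Gm6257* rested on 6 to 28 reads per library, and *Gm6768* and *Gm6257* are processed pseudogenes whose reads may belong to their parent genes. Of these 5 genes, 1 was also among the 5 with the highest Pearson correlation over the 4 libraries.

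*F3* (ENSMUSG00000028128, chromosome 3, 121723537 to 121735048, plus strand) encodes tissue factor, the membrane receptor of coagulation factor VII. It had 201 and 218 normalized reads in high MMP and 178 and 211 in low MMP cells. Low MMP replicate 2 lay between the high MMP values, so that the groups overlapped. The log2 difference was 0.11 with a standard error of 0.14 (limma, adjusted p = 0.881), and -0.01 without low MMP replicate 1.

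*Tfpi2* (ENSMUSG00000029664, chromosome 6, 3962595 to 3988919, minus strand) was counted in 0 and 6 reads in high MMP and in 4 and 2 reads in low MMP libraries. The exact Poisson intervals, formed as for *Serpinb2*, were 0 to 2.80 and 1.84 to 10.9 normalized reads in high MMP cells. In low MMP cells they were 0.95 to 8.93 and 0.21 to 6.40. Each of these intervals overlapped with all the others. A difference in *Tfpi2* was not detectable at this depth, and no fold is given.

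To relate activator, receptor and inhibitors to each other with little effect of library scaling, ratios of values + 1 were formed within each library. The ratio of *Plau* to *Plaur* was 1.04 and 1.07 in the high MMP and 1.51 and 1.35 in the low MMP samples. Thus receptor mRNA was more abundant relative to urokinase mRNA in both high MMP samples than in either low MMP sample. The log2 ratio differed by -0.44, from 0.07 ± 0.03 (SD, n = 2) in high to 0.51 ± 0.12 (SD, n = 2) in low MMP cells. For *Plau* to *Serpine2*, the ratio was 0.758 and 1.08 in high MMP and 1.32 and 1.20 in low MMP cells, a log2 difference of -0.48, which was -0.22 without high MMP replicate 1 and -0.73 without high MMP replicate 2. The groups did not overlap in either ratio, yet the exact permutation test (two-sided) gave p = 0.333 for each, which is the smallest p that 2 against 2 samples allow, and adjustment over the 2 ratios leaves it at 0.333. The ratio of *Plau* to *Serpinb2*, given as a description, was 46.3 and 71.3 in high and 198 and 80.9 in low MMP cells. Its log2 difference was -1.14, and -0.50 without low MMP replicate 1 and -1.79 without low MMP replicate 2.

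**Figure D3:**
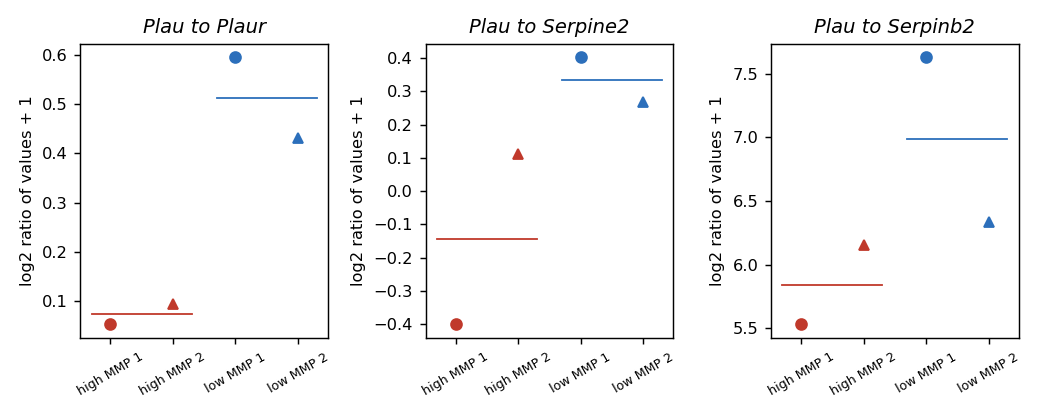
Within-library log2 ratios of *Plau* to *Plaur*, *Serpine2* and *Serpinb2* (each formed from values + 1), with points for the libraries and lines for the group means. The vertical axes differ between panels and do not start at 0. In all 3 panels both high MMP points lie below both low MMP points, and in the last panel low MMP replicate 1 lies far above the other libraries.

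Promoters of 5 of the 7 members were matched by symbol in the RefSeq promoter table of build GRCm38.p6, and *Plau* and *Plat* were the others. The windows below hold the 250 bases before the start, written 5′ to 3′ on the strand of the gene, for the 3 members whose groups did not overlap (*Serpinb2*, *Plaur*, *Serpine2*) and for *F3*, which holds 2 motif matches. Capitals mark TGANTCA, letters that include the AP-1 sequence TGACTCA. This motif was chosen with the values of the members known. The windows are chr1:107511173-107511422 for *Serpinb2*, chr7:24462233-24462482 for *Plaur* and chr3:121723287-121723536 for *F3*, all on the plus strand, and chr1:79858666-79858915 for *Serpine2*, on the minus strand. The start used for *Serpine2* is 79858665. It lies inside the span given above for the gene, which comes from another annotation, so that window is not upstream of the span.
Serpinb2: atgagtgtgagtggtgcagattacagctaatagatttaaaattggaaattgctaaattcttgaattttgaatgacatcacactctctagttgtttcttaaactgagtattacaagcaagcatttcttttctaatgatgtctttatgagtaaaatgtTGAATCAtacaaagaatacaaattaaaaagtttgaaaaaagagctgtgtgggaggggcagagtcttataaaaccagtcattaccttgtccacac
Plaur: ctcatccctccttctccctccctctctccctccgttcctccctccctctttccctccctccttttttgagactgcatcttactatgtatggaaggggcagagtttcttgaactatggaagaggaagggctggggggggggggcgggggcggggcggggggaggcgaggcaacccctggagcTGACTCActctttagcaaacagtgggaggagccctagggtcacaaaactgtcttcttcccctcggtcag
F3: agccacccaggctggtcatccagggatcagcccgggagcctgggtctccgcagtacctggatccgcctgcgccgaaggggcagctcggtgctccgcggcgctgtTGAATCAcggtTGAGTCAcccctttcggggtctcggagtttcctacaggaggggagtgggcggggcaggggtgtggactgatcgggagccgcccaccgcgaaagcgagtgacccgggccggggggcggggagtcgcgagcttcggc
Serpine2: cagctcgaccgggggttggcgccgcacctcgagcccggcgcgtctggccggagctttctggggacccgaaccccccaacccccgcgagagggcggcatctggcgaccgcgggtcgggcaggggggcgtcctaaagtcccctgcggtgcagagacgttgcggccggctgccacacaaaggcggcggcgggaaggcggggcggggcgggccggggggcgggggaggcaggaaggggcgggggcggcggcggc

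TGANTCA is its own reverse complement, so both strands were searched at once, and it was found in 2217 of 32851 promoter windows of the same length (6.75%). *Serpinb2* held TGAATCA, with its first base 94 bases before the start of the window shown, and the same match lies 181 bases before a second start in the table. *Plaur* held TGACTCA 69 bases before the start. *F3* held TGAATCA and TGAGTCA, at 146 and 135 bases. *Tfpi2*, which was barely detected, held TGAATCA at 77 bases in 1 of its 3 windows, one that also lies inside the span given above for the gene. *Serpine2* held no match. The letters were thus present both in members whose groups overlapped and in members whose groups did not. GGGCGG or its reverse complement CCGCCC, the GC box, which cannot share bases with TGANTCA, was found in 32.7% of all windows. It occurred 6 times in *Serpine2*, 3 times each in *Plaur* and *F3* and 0 times in *Serpinb2*. These matches describe the letters in the windows and are not evidence of a bound site.

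The wider system was read from a list of 50 genes chosen by function, of which 37 were in the table and 26 had a mean of at least 10 normalized reads. None passed the adjusted test (limma, 0 of 37). At an unadjusted p under 0.05, *Procr* was higher in high MMP cells (2.7% of the list) and *Prss8* and *Hpn* were lower (5.41%), and *Hpn* was counted at 0 in both high MMP libraries and near 0 in the others. The groups did not overlap for 3 genes that were higher (8.11%) and 7 that were lower (18.9%), both below the share among all genes. The median log2 difference of the 26 genes was -0.04, against -0.03 for the 12902 genes of the table with such a mean.

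Among the inhibitors, *Serpini1*, the gene of neuroserpin, an inhibitor of the tissue-type activator, had 22.7 and 17.6 normalized reads in high and 27.9 and 25.7 in low MMP cells. Both high MMP values were below both low MMP values, and the log2 difference was -0.40 with a standard error of 0.27 (limma, adjusted p = 0.736). *Spint1*, which encodes a Kunitz inhibitor of matriptase and of the activator of hepatocyte growth factor, had 1169 and 1500.4 against 1791 and 1474. Its groups overlapped, and its difference was -0.30. Of the 7 inhibitors in the table, 1 was higher without overlap, *Serpinb9*, and 2 were lower (14.3% and 28.6%, close to the 13.5% and 24.5% of all genes). Among the binding sites of plasminogen, *S100a10*, whose product binds plasminogen at the cell surface together with annexin A2, had 10171 and 5889 normalized reads in high and 5853 and 7656 in low MMP cells. High MMP replicate 1 was the highest library, the groups overlapped, and the difference was 0.21 with a standard error of 0.31 (limma, adjusted p = 0.914).

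Among the genes of coagulation and its inhibitors, *Procr* encodes the endothelial protein C receptor, which is also used as a surface marker of mammary stem cells. It had 1379 and 1463 normalized reads in high MMP and 1036 and 1027 in low MMP cells. The replicates lay close together within each group, and the log2 difference was 0.46 with a standard error of 0.08 (limma, adjusted p = 0.472). *F5*, coagulation factor V, had 72.7 in high MMP replicate 1 but only 14.2 in high MMP replicate 2, with 18.3 and 24.8 in low MMP cells. Its difference of 0.59 therefore came from 1 library, and the groups overlapped.

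Among the proteases and the receptors that clear or bind them, *Prss8*, the gene of the membrane protease prostasin, had 133 and 125 normalized reads in high MMP and 179 and 221 in low MMP cells. The log2 difference was -0.62 with a standard error of 0.16 (limma, adjusted p = 0.472), and both high MMP values were lower than both low MMP values. *Igf2r*, a sorting receptor that can bind plasminogen and the urokinase receptor, had 2839 and 4734 against 5309.9 and 4828. Its high MMP values were lower as well, but high MMP replicate 2 lay close to the low MMP samples, and the difference was -0.47 with a standard error of 0.27. None of the 6 substrates of the list in the table, *Mmp3*, *Mmp9*, *Fn1* and *Met* among them, had groups that did not overlap. Among all genes, 13.5% were higher and 24.5% lower without overlap. With 6 genes, *Fgb* and *Hgf* near 0 among them, this is not a result about the substrates as a group. Of the 3 protease-activated receptors in the table, which proteases switch on by cutting them, *F2r* and *F2rl1* were lower in both high MMP samples, with differences of -0.12 and -0.27, and neither passed the test. With 3 genes, 2 against a background of 24.5% of all genes is not a result about the receptors as a group.

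**Figure D4:**
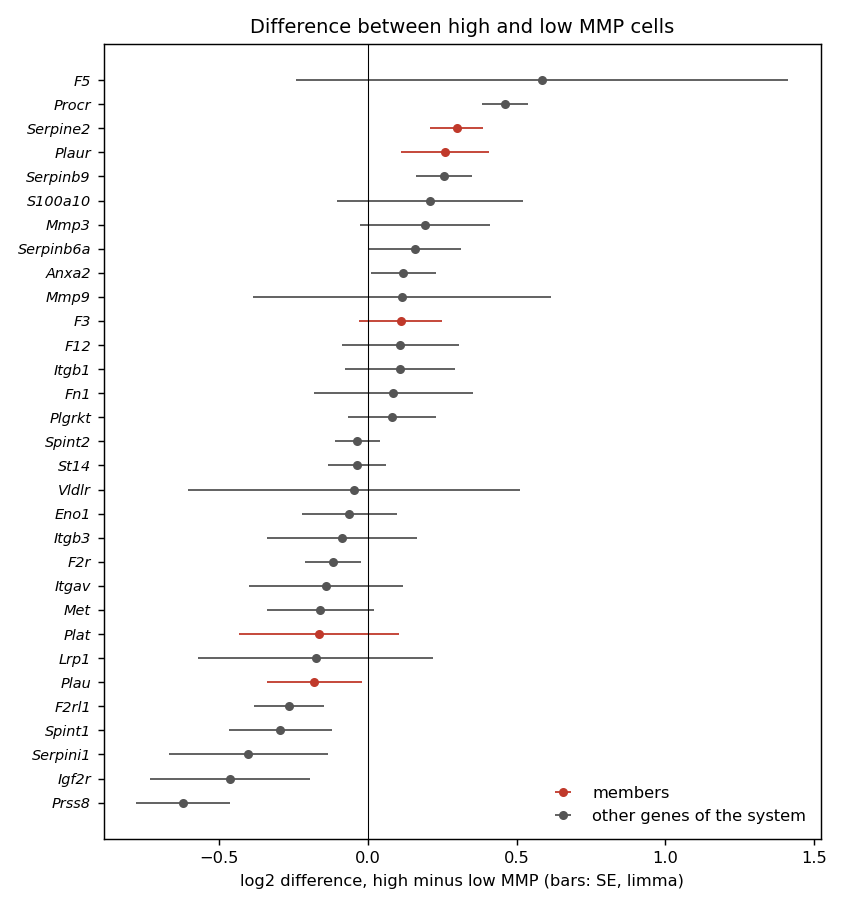
Log2 difference between high and low MMP cells, with bars of 1 standard error from limma, for the 5 tested members with a mean of at least 10 (red) and the 26 other genes of the system with such a mean (grey), ordered by size. *Serpine2* and *Plaur* lie above 0 at 0.30 and 0.26, below *Procr* at 0.46, and *Plat* and *Plau* lie below 0. *Serpinb2* is not drawn because it was selected on this difference.

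Clade B serpins are relatives of *Serpinb2* that lack a classical secretion signal and mostly act inside cells. The table held 11 of them, *Serpinb2* included, and 5 had a mean of at least 10. All 4 such relatives of *Serpinb2* had a difference above 0, with a median of 0.44, and none passed the adjusted test. Among all genes with such a mean, 5403 of 12902 had a difference above 0, with a median of -0.03. Of the 6 relatives with lower means, all near the limit of detection, *Serpinb1c* and *Serpinb8* had values of -0.52 and -0.40, and the other 4 were above 0. *Serpinb5*, the gene of maspin, an epithelial serpin with no known protease inhibition, had 221 and 190.0 normalized reads in high MMP and 142 and 125 in low MMP cells. *Serpinb6b* had 226 and 195 against 122 and 150.5. The groups of both genes were separate, at log2 differences of 0.62 with a standard error of 0.15 and 0.63 with a standard error of 0.17 (limma, adjusted p = 0.472 for both).

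*Serpinb9*, an inhibitor of granzyme B, had 299 and 306 normalized reads in high MMP and 257 and 249.6 in low MMP cells. The groups were again separate, with a difference of 0.26 and a standard error of 0.10 (limma, adjusted p = 0.507). *Serpinb6a*, the most abundant of the clade, had 6503 and 4976 against 4963 and 5247. High MMP replicate 2 was as low as low MMP replicate 1, the groups overlapped, and the difference was 0.16. Of the 10 relatives in the table, 3 had separate groups with higher values in high MMP cells (30%) and 0 with lower values, where all genes gave 13.5% and 24.5%. With 10 genes, 3 against a background of 13.5% is not a result about the clade as a group. The Serpinb6 and Serpinb9 genes have related copies in the mouse, whose likeness was not measured here. How reads that fit several copies were counted is not given in the sources used here, so their values are uncertain.

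**Figure D5:**
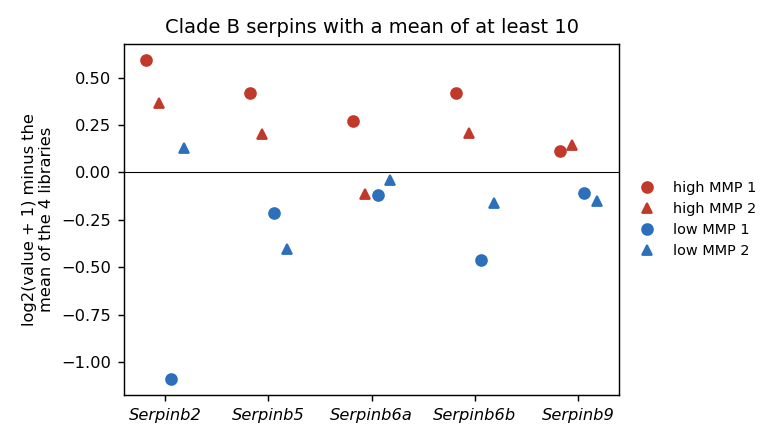
Log2(value + 1) of the 5 clade B serpins with a mean of at least 10 normalized reads, centred on the mean of the 4 libraries, for high MMP (red) and low MMP (blue) replicates 1 (circles) and 2 (triangles). The high MMP points lie above the low MMP points for each gene except *Serpinb6a*, and the spread is widest for *Serpinb2*, through low MMP replicate 1.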

How the data were processed

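RNA-sequencing of 4T1 cells sorted for high and low MMP was analysed in 4 samples, grouped by their titles. The deposited table holds a normalized signal per gene: the authors aligned reads to the mouse transcriptome (GRCm38, mm10), counted them per gene, scaled them by library total and removed genes seen in fewer than 2 samples. The submitters' processing notes name STAR and HTSeq, and neither their versions, nor the annotation, nor how multi-mapping reads were treated is given in the sources used here. The table has 0 columns of no sample. Each column sums to 20000000 up to rounding, and dividing by the value of 1 read gave whole reads for 100.0% of values (tolerance 0.1), which gave the depth and entered the count-based alternatives. The chi-square between replicates was 31.9 per gene in high and 6.91 in low MMP cells, above sampling noise (1 per gene), so there was no sign of a library entered in duplicate.

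High and low MMP were compared on log2(value + 1) by limma 3.58.1 (trended eBayes; R 4.3.3) without a block, and p-values were adjusted over 20197 genes at a threshold of 0.05. A fold on this scale understates the change of low genes. Positions and exon lengths come from GENCODE release M21, which matched 19993 identifiers, and promoters from RefSeq. Alternatives were other pseudocounts, mean filters, rescaling and quantile normalization, no variance trend, the replicate number as a block, edgeR 4.0.16 and DESeq2 1.42.0 on recovered reads, and each library left out. The scripts were tested on simulated data, in which limma with the replicate block made no calls although it recovered the size of the changes. Genes named are the members, the 4 genes of the wider list with the largest difference in each direction and a mean of at least 10 (and any called), clade B serpins with such a mean, and the 5 genes nearest to *Serpinb2*. *Hpn*, *F2r*, *F2rl1*, *Serpinb1c*, *Serpinb8*, the substrates, *Krt8* and other markers were named outside this rule, after their values were seen. A gene of the wider list is not reported here and was left out of its counts. The members and lists were chosen with earlier results of these data known.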

Additional observations from a re-analysis of the deposited data

How the results depend on the processing

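No tested member was called under any alternative, and no member changed direction under another scaling, pseudocount or test. Of the alternatives listed above, only edgeR with the replicate block and DESeq2 called any gene at all. The absence of called members under the others therefore says nothing about stability. With libraries left out in turn, the log2 difference ranged from -0.38 to 0.018 for *Plau*, from -0.47 to 0.14 for *Plat*, from -0.011 to 0.23 for *F3*, from 0.08 to 0.44 for *Plaur*, from 0.24 to 0.35 for *Serpine2*, from 0.35 to 1.57 for *Serpinb2* and from -1.82 to 0.77 for *Tfpi2*, which rests on 0 to 6 reads. The reversals, to 0.018 for *Plau* and 0.77 for *Tfpi2* without high MMP replicate 1, to -0.011 for *F3* without low MMP replicate 1 and to 0.14 for *Plat* without low MMP replicate 2, come from fewer samples. Over the alternatives that gave a test, adjusted p ranged from 0.265 to 0.999 for *Serpine2* and from 0.369 to 0.999 for *Plaur*. *Tfpi2* has no value with a mean of at least 10.

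Over all genes, edgeR with the replicate block called 106 (63 higher, 43 lower) and DESeq2 without it 118 (81 higher, 37 lower), against 0 by limma with or without the replicate block and 0 by edgeR without it. The cause was not tested. The main fit had no block, because the study describes none. In these same data, same-numbered libraries strayed from their groups in opposite directions (correlation -0.421 over 12902 genes). Whether same-numbered or other libraries share a sort is not known. In the limma fit with the replicate block, *Serpine2* had an adjusted p of 0.888, but that fit leaves 1 residual degree of freedom, so its 0 calls say nothing about stability. With the numbers crossed as the block, chosen after seeing the data, edgeR called 733 genes, 4 of them in the wider plasminogen list (*F5*, *Igf2r*, *Procr* and *Prss8*), none of which passed in the other fits. By Pearson correlation, 1 of the 5 genes nearest to *Serpinb2* was kept. With 2 samples per group, no permutation test could reach 0.05, and at the depth of *Tfpi2* no difference could be seen.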
